A study of Mus musculus with 11 samples.

Results

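Tumor conventional type 1 dendritic cells (cDC1s) are rare, and a sorted pool can carry RNA of the cells around them. Of the 24421 genes in the count table, 42 that mark other lineages were followed pool by pool over all 11 pools. They comprise 8 melanoma genes, 13 macrophage and monocyte genes, 5 genes of type 2 conventional dendritic cells (cDC2s), 5 T cell, 4 NK cell, 3 B cell, 2 plasmacytoid dendritic cell (pDC) and 2 neutrophil genes. The members were listed by lineage, with earlier results of these data known, and all 42 were found in the table. Of these, 30 form a strict set, held to be particular to their lineage, and the other 12, such as Lyz2, Cd68, Irf4 and Tcf4, are also known from other dendritic or myeloid cells.

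The pools were cDC1s sorted from subcutaneous B16 melanoma, a pigmented mouse tumor line, grown in C57BL/6 mice of both sexes at 6 to 14 weeks of age. Each pool joined the tumors of 2 to 4 mice, enriched for CD45+ cells on magnetic beads and sorted straight into lysis buffer. The 4 control pools carried floxed alleles without Cre, Xbp1 fl/fl in replicates 1 to 3 and Xbp1 fl/fl with Ern1 fl/fl in replicate 4. The 4 XBP1ΔDC pools were Xbp1 fl/fl with CD11c-Cre (Itgax-Cre), which removes the transcription factor XBP1. The 3 XBP1ΔDCIRE1truncDC pools, here also double-mutant, were Xbp1 fl/fl and Ern1 fl/fl with the same Cre, which leaves an IRE1 without its RNase domain. CD11c is carried by other dendritic cells and by macrophages too, so Cre is not limited to cDC1s, and cells of those lineages in a pool may themselves be mutant. The comparisons ask whether foreign RNA moved with genotype.

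The 11 libraries held 21089065 to 26843486 counts. Counts of Xbp1, summed over all its exons, were 244 to 271 CPM (counts scaled to a common library size by TMM) in the controls, 130 to 165 CPM in XBP1ΔDC and 179 to 236 CPM in the double-mutant pools, and those of Ern1 were 9.81 to 19.0, 9.73 to 15.6 and 17.0 to 26.0 CPM. Gene counts do not separate the deleted exons, so they are no direct check of recombination. All 15 cDC1 markers were present in every pool, and Xcr1, the chemokine receptor used to recognise cDC1s, lay between 751 and 988 CPM. The summed level of these markers was 14946 to 16243 CPM in the controls, 12701 to 14067 CPM in XBP1ΔDC and 13475 to 14409 CPM in the double-mutant pools, so that both mutant groups lay wholly below the controls. None of the 15 was more than 1.5-fold changed with an adjusted p under 0.05. Naaa, a lysosomal acid amidase, had an adjusted p under 0.05 in edgeR at a smaller fold, with log2 fold changes of −0.51 in XBP1ΔDC (edgeR adjusted p = 0.000495) and −0.33 in the double-mutant pools (edgeR adjusted p = 0.0396) against control. It held 3923 to 4353 CPM in the controls, 2703 to 3050 CPM in XBP1ΔDC and 3218 to 3413 CPM in the double-mutant pools. The separation of the marker sums thus rested largely on Naaa. Irf8, the other most abundant marker, overlapped between all groups (3615 to 4488 CPM over pools). The part of the lower marker sums in the members' levels was not tested. In a bulk pool, fewer cells of a type and less RNA per cell cannot be told apart.

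Each lineage is known by a small set of genes tied to its work. Melanoma cells make pigment through Tyr, Tyrp1 and Dct on a fibre laid down by Pmel, under the transcription factors Mitf and Sox10. Tissue macrophages make the C1q chains of complement, Apoe and scavenger receptors such as Mrc1, monocytes carry Ly6c2, and lymphocytes are recognised by the CD3 chains, by cytotoxic granule proteins or by B cell receptor components. Dendritic cells also take up material of dying cells.

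No member was a differentially expressed gene (DEG) in any comparison, where a DEG had to change more than 1.5-fold with an adjusted p under 0.05 in edgeR's quasi-likelihood test. Of the 42 members, 25 passed the filter on low counts (above 1 CPM in at least 4 pools) and 17 did not. Among all 10951 genes tested, DEGs made up 0.493% in XBP1ΔDC against control, 0.21% in XBP1ΔDCIRE1truncDC against control and 0.0731% in XBP1ΔDCIRE1truncDC against XBP1ΔDC. At an unadjusted p under 0.05, 2 members (C1qc and Cd68) stood out in the first comparison, where 7.62% of all genes did. In the second, 5 members did (Cd68, Dct, Mitf, Pmel and Siglech), beside 11.2% of all genes. In the third only Dct did, beside 5.29% of all genes.

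The median log2 fold change of the 25 members was 0.07 in XBP1ΔDC against control, where 14 were higher and 11 lower. It was −0.21 in the double-mutant pools against control and −0.15 against XBP1ΔDC, with 15 lower and 10 higher in both. Over all genes tested these medians were 0.0050, −0.0031 and 0.0015. The members' log2 fold changes were imprecise, with a median standard error (SE) of 0.52, 0.55 and 0.55, whereas over all genes it was 0.15, 0.16 and 0.16.

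**Figure D1:**
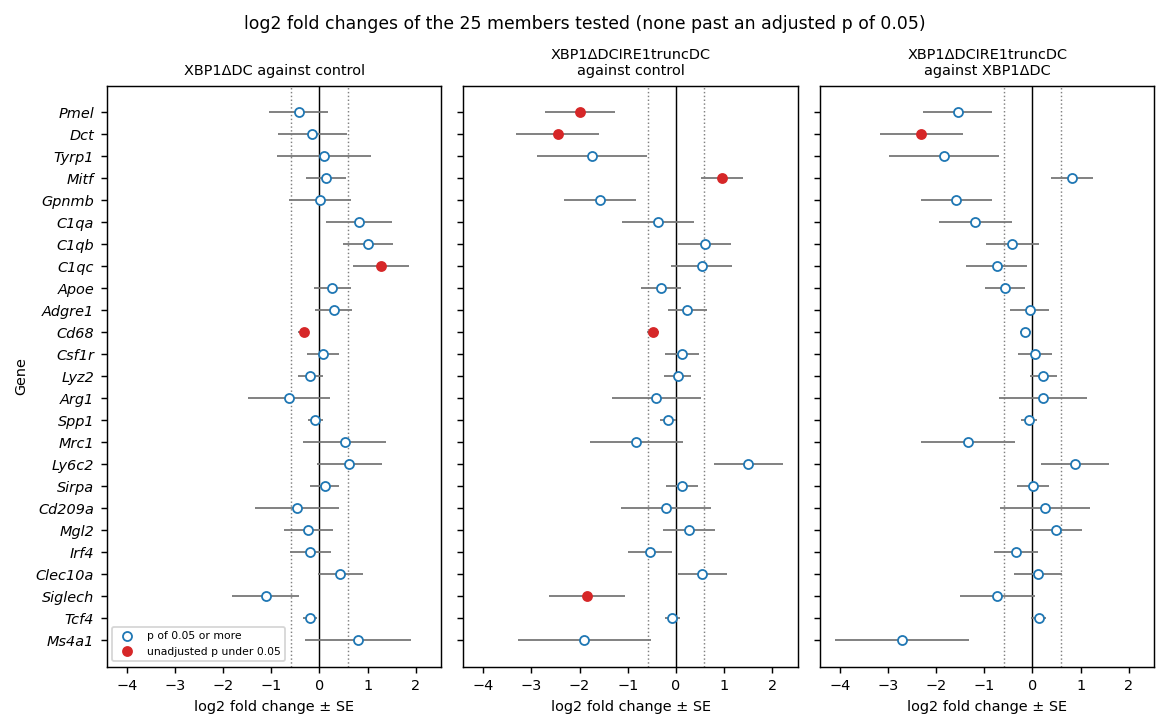
log2 fold change with its SE for the 25 members tested, in 3 panels, 1 per comparison. Filled red points have an unadjusted p under 0.05, open blue points do not, and dotted lines mark a fold change of 1.5. The longest bars belong to low or uneven genes such as Ms4a1 and Tyrp1, and Cd68 and Spp1 have short bars.

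Read against gene length, most members were far below the genes of the sorted cell. The median level over pools of the 30 strict members had a midpoint of 0.244 CPM per kb of exon, whereas that of the 15 cDC1 markers was 75.8 CPM per kb, with Zbtb46 the lowest at 22.9 CPM per kb. Only 3 members exceeded Zbtb46, namely Lyz2 at 572, Cd68 at 195 and Spp1 at 69.1 CPM per kb. The next was Apoe at 11.3 CPM per kb.

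Melanoma transcripts were present in every pool at uneven levels, and all 3 double-mutant pools were low. Summed over the 8 genes, the controls held 15.5, 12.2, 72.0 and 75.8 CPM in replicates 1 to 4, and the XBP1ΔDC pools 16.9, 15.99, 41.2 and 85.1 CPM. The 3 double-mutant pools held 12.9, 15.2 and 11.99 CPM. Thus 4 pools, replicates 3 and 4 of each of the first groups, stood above the other 7, and no double-mutant pool was among them. The double-mutant sums lay wholly below those of XBP1ΔDC, by a narrow margin (15.2 against 15.99 CPM), and overlapped the controls, while control and XBP1ΔDC overlapped throughout. The group means were 43.9 ± 34.7 CPM (SD, n = 4), 39.8 ± 32.4 CPM (SD, n = 4) and 13.4 ± 1.66 CPM (SD, n = 3).

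**Figure D2:**
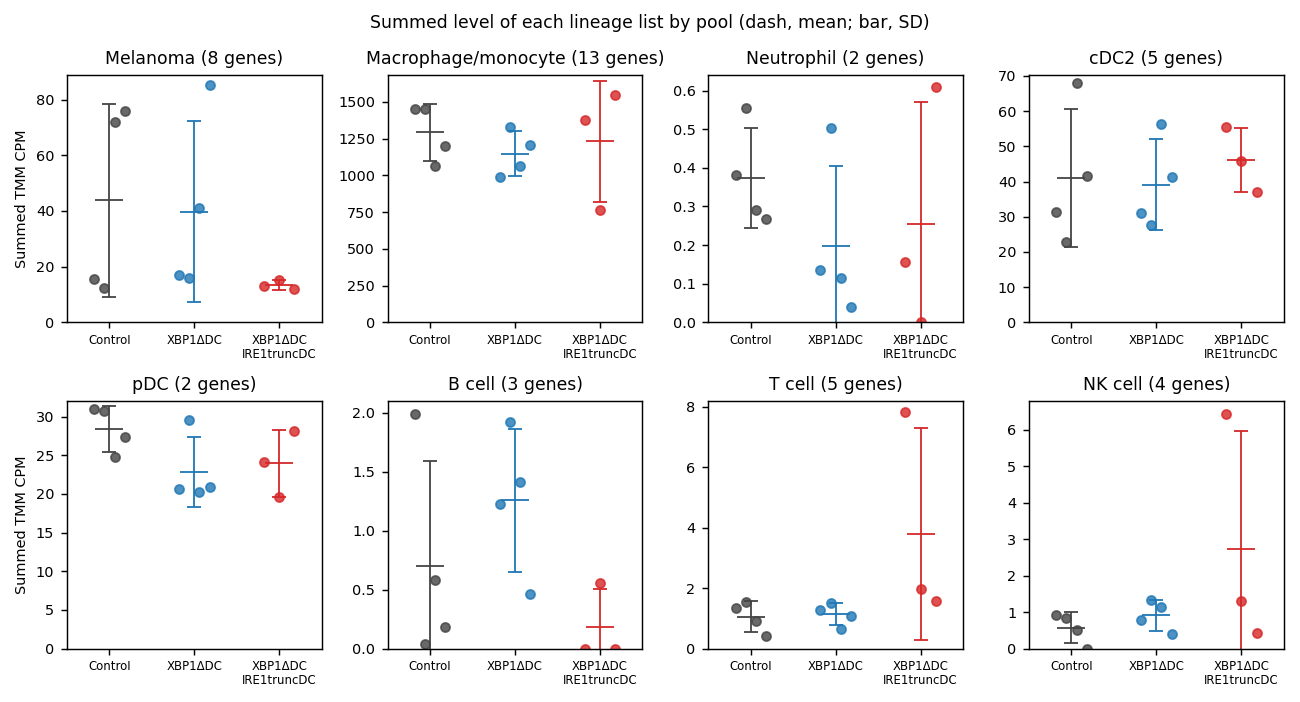
Summed TMM-scaled CPM of each lineage list, 1 point per pool and 1 panel per list, with the group mean (dash) and SD (bar, cut off at 0). The melanoma panel shows 2 control and 2 XBP1ΔDC pools above all others, from 41.2 to 85.1 CPM, and the T and NK cell panels show 1 double-mutant pool far above the rest (7.81 and 6.45 CPM).

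Pmel encodes the fibril protein of the melanosome and lies at chr10:128704195-128720238 (GRCm38). The 4 controls held 3.64, 1.70, 17.0 and 11.997 CPM of it, in order of replicate. It was 3.44, 3.75, 5.97 and 12.2 CPM in the XBP1ΔDC pools and 2.07, 3.21 and 1.22 CPM in the double-mutant pools. Every double-mutant pool was below every XBP1ΔDC pool, whereas the range of the double-mutant pools overlapped that of the controls, since control replicate 2 was low. The log2 fold change was −1.99 in the double-mutant pools against control (SE 0.73, edgeR adjusted p = 0.319) and −1.55 against XBP1ΔDC (SE 0.72, edgeR adjusted p = 0.938). In XBP1ΔDC against control it was −0.43 (SE 0.62, edgeR adjusted p = 0.959), and without control replicate 3 its sign turned (0.14). These values rested on 28 to 411 reads a pool. Among the controls the coefficient of variation was 83.6%, and counting error alone would give 7.02%.

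Dct, a pigment enzyme also called TRP-2 (chr14:118012790-118052244), followed the same 4 pools. The controls held 4.74, 4.11, 21.5 and 33.4 CPM, the XBP1ΔDC pools 4.84, 5.12, 12.4 and 34.9 CPM, and the double-mutant pools 1.76, 2.65 and 4.30 CPM. The double-mutant pools lay below every XBP1ΔDC pool and overlapped the controls at a single point, 4.30 against 4.11 CPM. The log2 fold change was −2.45 against control (SE 0.86, edgeR adjusted p = 0.307) and −2.31 against XBP1ΔDC (SE 0.86, edgeR adjusted p = 0.819), and −0.15 in XBP1ΔDC against control (SE 0.71, edgeR adjusted p = 0.989).

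Tyrp1, a further pigment enzyme (chr4:80834123-80851719), held 1.06, 1.70, 10.03 and 10.4 CPM in the controls and 1.58, 1.55, 8.84 and 12.7 CPM in XBP1ΔDC. In the double-mutant pools it held 4.06 and 1.07 CPM and, in replicate 3, no read at all. Gpnmb, a membrane glycoprotein of melanoma cells that macrophages make as well, held 3.73, 3.26, 18.5 and 14.9 CPM in the controls, 3.48, 3.79, 12.7 and 20.4 CPM in XBP1ΔDC and 1.91, 5.03 and 3.26 CPM in the double-mutant pools. For both, the double-mutant range overlapped the low pools of each other group, and their log2 fold changes in the double-mutant pools against control were −1.74 (SE 1.14, edgeR adjusted p = 0.642) and −1.57 (SE 0.74, edgeR adjusted p = 0.462).

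The 3 melanoma genes that did not pass the filter were low throughout. Tyr, the rate-limiting pigment enzyme, had 30 reads in XBP1ΔDC replicate 4, 17 and 12 in control replicates 3 and 2, and at most 1 in each other pool, with 6 pools at 0. Mlana, the melanosome protein MART-1, had 6 to 59 reads, and Sox10 had 0 to 46. Mlana was highest in control replicate 4 and XBP1ΔDC replicate 4, as Dct was, and Sox10 in control replicate 3. In XBP1ΔDC replicate 3, where Dct held 12.4 CPM, Mlana was the lowest of its group (0.31 CPM). Sox10 had 8 reads in that pool.

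Mitf did not follow the genes it is known to regulate. It held 1.06, 0.74, 0.99 and 1.74 CPM in the controls, 1.81, 1.05, 0.73 and 1.40 CPM in XBP1ΔDC and 2.27, 1.86 and 2.43 CPM in the double-mutant pools. The double-mutant pools were above all others, though above XBP1ΔDC by a narrow margin (1.86 against 1.81 CPM). Pmel and Dct went the other way, below XBP1ΔDC in these pools and overlapping the controls. The log2 fold change was 0.95 against control (SE 0.44, edgeR adjusted p = 0.446). Mitf is also active in macrophages, mast cells and other myeloid cells. Its spread between pools, a biological coefficient of variation of 0.36, was under the trend for its abundance (0.49).

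Over the 11 pools, the gene whose log2 CPM was most like that of Pmel was Ranbp2, a nuclear pore protein (Pearson r = 0.954), followed by Gpnmb (0.912), Abi1 (0.908), Adpgk (0.906) and Dock10 (0.900). Dct ranked 12 among all genes tested (r = 0.877), Tyrp1 ranked 27 (r = 0.811) and Mitf was unlike it (r = −0.272). These correlations share their 11 libraries and describe them only. The ratio of Dct reads to Pmel reads ran from 0.826 to 3.54 over pools, with a median of 1.41.

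Promoters of pigment genes are shown because Dct and Tyrp1 moved with Pmel over pools and pigment genes share a known sequence, the M-box bound by MITF. Tyr was less in step, with 1 read in control replicate 4 and 0 in XBP1ΔDC replicate 3. Pmel itself had no promoter entry. The M-box core TCATGTG was searched on both strands (CACATGA on the other) in the 300-base windows of RefSeq (GRCm38.p6). It was found in 1239 of 32851 windows (3.77%) and, by gene, for 1165 of 27025 (4.31%), in those of 3 of the 5 melanoma members with an entry (Dct, Tyr and Tyrp1, but not Gpnmb or Mitf) and in 5 of the 29 members with one. The 2 others were C1qb and C1qc. The 250 bases before each RefSeq start are printed in the direction of transcription, with the core in capitals: Dct at chr14:118052247-118052496 (minus strand), Tyr at chr7:87493513-87493762 (minus strand) and Tyrp1 at chr4:80833963-80834212 (plus strand).
Dct: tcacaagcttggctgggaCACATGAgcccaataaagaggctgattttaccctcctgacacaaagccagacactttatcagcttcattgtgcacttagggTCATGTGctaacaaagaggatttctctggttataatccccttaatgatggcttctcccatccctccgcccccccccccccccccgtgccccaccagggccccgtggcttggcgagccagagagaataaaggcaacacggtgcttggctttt
Tyr: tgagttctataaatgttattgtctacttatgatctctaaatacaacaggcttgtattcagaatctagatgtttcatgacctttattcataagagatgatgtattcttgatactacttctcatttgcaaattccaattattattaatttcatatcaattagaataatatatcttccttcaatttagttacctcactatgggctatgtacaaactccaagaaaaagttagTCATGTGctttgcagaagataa
Tyrp1: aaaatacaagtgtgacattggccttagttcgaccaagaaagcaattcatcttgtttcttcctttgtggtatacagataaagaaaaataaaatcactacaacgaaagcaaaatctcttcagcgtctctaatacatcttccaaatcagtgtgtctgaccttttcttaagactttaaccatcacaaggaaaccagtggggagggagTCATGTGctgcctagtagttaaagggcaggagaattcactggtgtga
Dct carries 2 cores, at bases 19 and 100 of the stretch, Tyr 1 at base 229 and Tyrp1 1 at base 204. GENCODE places the start of Tyrp1 further upstream, inside the stretch shown. A match describes these letters and is not a measured binding site.

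**Figure D3:**
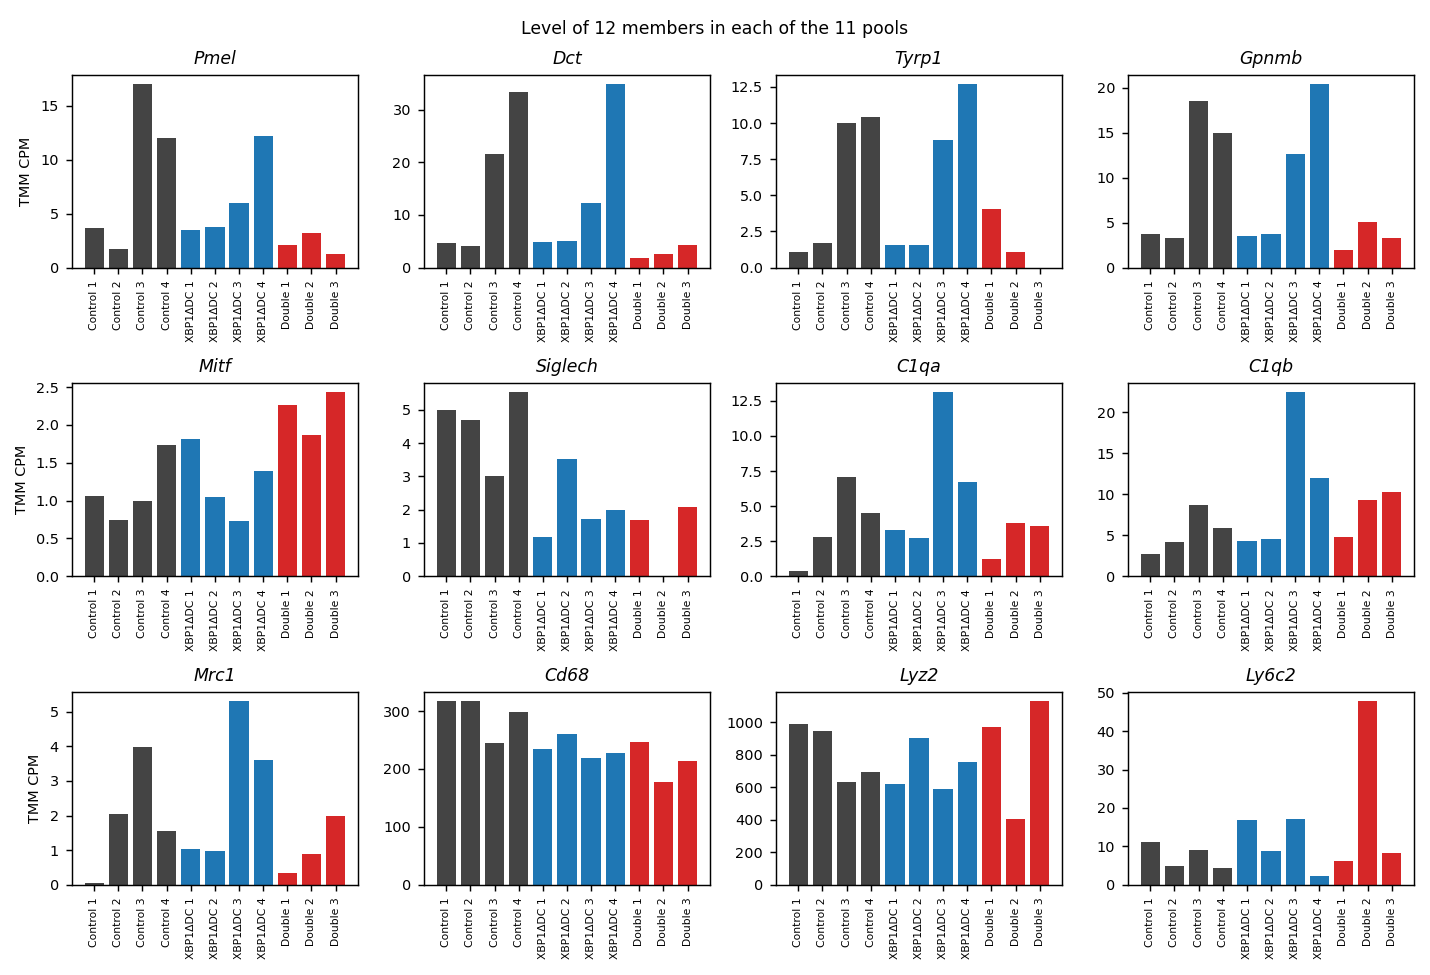
TMM-scaled CPM of 12 members in each of the 11 pools (grey, control; blue, XBP1ΔDC; red, double-mutant, XBP1ΔDCIRE1truncDC), on a linear axis from 0 that differs between panels. Pmel, Dct, Tyrp1 and Gpnmb are tall in replicates 3 and 4 of the control and XBP1ΔDC groups, the C1q genes and Mrc1 in XBP1ΔDC replicate 3, and Ly6c2 in double-mutant replicate 2.

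Macrophage and monocyte genes made up nearly all of the summed level of the members, through genes that are not particular to macrophages. The 13 genes summed to 1061 to 1454 CPM in the controls, 991 to 1329 CPM in XBP1ΔDC and 765 to 1548 CPM in the double-mutant pools, and Lyz2 was the largest part. Without the 4 genes that dendritic cells are also known to express (Lyz2, Cd68, Apoe and Csf1r), the sum was 124 to 203 CPM, most of it Spp1. Spp1 was fairly even over pools (91.0 to 146 CPM) and little like C1qa in log2 CPM (Pearson r = 0.221). Which cells its reads came from was not tested.

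The C1q genes, markers of resident and tumor-associated macrophages, were highest in XBP1ΔDC replicate 3. C1qa (chr4:136895917-136898803) held 0.38, 2.77, 7.09 and 4.50 CPM in the controls, 3.26, 2.74, 13.1 and 6.75 CPM in XBP1ΔDC and 1.25, 3.77 and 3.56 CPM in the double-mutant pools. C1qb held 2.71, 4.22, 8.66 and 5.84 CPM, then 4.34, 4.48, 22.4 and 11.9 CPM, then 4.73, 9.31 and 10.3 CPM. All 3 groups overlapped for both genes.

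C1qc, which encodes the third chain, held 1.65, 2.40, 5.05 and 4.59 CPM in the controls, 3.58, 2.92, 17.1 and 9.46 CPM in XBP1ΔDC and 1.76, 6.38 and 6.73 CPM in the double-mutant pools. Its log2 fold change in XBP1ΔDC against control was 1.27 (SE 0.59, edgeR adjusted p = 0.655), and 0.64 without XBP1ΔDC replicate 3. That of C1qa was 0.81 (SE 0.68, edgeR adjusted p = 0.909). In the double-mutant pools C1qa differed by −0.37 from control (SE 0.75, edgeR adjusted p = 0.919), which turned to 0.16 without control replicate 3, and by −1.18 from XBP1ΔDC (SE 0.76, edgeR adjusted p = 0.967).

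Some other macrophage genes had their highest pool in the same place. How many of all genes tested were highest there is not given here. Of the 13, 8 were highest in XBP1ΔDC replicate 3, the C1q genes together with Apoe (10.2 to 40.2 CPM over pools), Adgre1, which encodes F4/80 (1.92 to 7.80 CPM), Csf1r (3.30 to 11.8 CPM), Trem2 (0.13 to 1.30 CPM) and the mannose receptor Mrc1 (0.042 to 5.32 CPM). Over the 11 pools the gene most like C1qa in log2 CPM was Mrc1 (Pearson r = 0.958), followed by Poli (0.935), Ankrd16 (0.909), Arl14ep (0.907) and Ptpdc1 (0.890). C1qc (r = 0.871) and C1qb (r = 0.844) ranked 11 and 17. Cd68 (r = −0.482) and Lyz2 (r = −0.518) were unlike it.

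Cd68, a lysosomal glycoprotein of macrophages and dendritic cells (chr11:69664213-69666153), had the smallest adjusted p of all members. It held 318, 318, 245 and 299 CPM in the controls, 234, 261, 220 and 227 CPM in XBP1ΔDC and 246, 177 and 213 CPM in the double-mutant pools. Most pools of the mutant groups lay below the controls, with an overlap made by control replicate 3. The log2 fold change was −0.33 in XBP1ΔDC (SE 0.11, edgeR adjusted p = 0.392) and −0.47 in the double-mutant pools (SE 0.12, edgeR adjusted p = 0.149), and −0.15 between the mutant groups (SE 0.12, edgeR adjusted p = 0.967). None of these reached a fold of 1.5.

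Lyz2, which encodes lysozyme and is found throughout myeloid cells, was the most abundant member, at 632 to 989 CPM in the controls, 588 to 900 CPM in XBP1ΔDC and 405, 972 and 1131 CPM in the double-mutant pools. Spp1, the secreted protein osteopontin, held 91.0 to 146 CPM over all pools. Both overlapped between all groups.

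Ly6c2 marks inflammatory monocytes and was uneven. It held 11.1, 4.96, 9.07 and 4.24 CPM in the controls, 17.0, 8.82, 17.1 and 2.25 CPM in XBP1ΔDC and 6.17, 47.9 and 8.21 CPM in the double-mutant pools. Double-mutant replicate 2 alone stood far above the rest, so the log2 fold change against control was 1.497 (SE 0.72, edgeR adjusted p = 0.467) with that pool and −0.03 without it. Against XBP1ΔDC it was 0.88 (SE 0.71, edgeR adjusted p = 0.967) and −0.65 without that pool, and in XBP1ΔDC against control 0.62 (SE 0.67, edgeR adjusted p = 0.945). Reads of Ly6c2 may be shared with the near-identical Ly6c1. Arg1, the arginase of suppressive myeloid cells, held 0.091 to 4.86 CPM and was highest in control replicates 4 and 3 and in double-mutant replicate 3.

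cDC2 genes were present at moderate levels in all pools. Mgl2 held 11.4, 10.3, 40.2 and 22.7 CPM in the controls, 13.1, 5.89, 31.6 and 21.4 CPM in XBP1ΔDC and 31.8, 30.3 and 13.9 CPM in the double-mutant pools. The groups overlapped, and its log2 fold change was −0.23 in XBP1ΔDC (SE 0.50, edgeR adjusted p = 0.975), 0.26 in the double-mutant pools against control (SE 0.54, edgeR adjusted p = 0.921) and 0.49 against XBP1ΔDC (SE 0.54, edgeR adjusted p = 0.985). The first of these had the opposite sign without control replicate 3 (0.29) or without XBP1ΔDC replicate 2 (0.062). Clec10a, the neighbouring C-type lectin gene, held 1.44 to 8.99 CPM, Sirpa, the surface receptor used to recognise cDC2s, 5.44 to 13.03 CPM, Irf4, their transcription factor, 2.23 to 8.73 CPM, and Cd209a, DC-SIGN, 0 to 2.85 CPM.

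Siglech, a surface lectin of pDCs, had its lowest group mean in the double-mutant pools. It held 4.998, 4.70, 3.02 and 5.53 CPM in the controls, 1.18, 3.52, 1.72 and 1.98 CPM in XBP1ΔDC, and 1.68, 0 and 2.08 CPM in the double-mutant pools. Every double-mutant pool was below every control pool, and XBP1ΔDC replicate 2 reached into the control range. The log2 fold change was −1.85 in the double-mutant pools against control (SE 0.79, edgeR adjusted p = 0.397), −1.28 without double-mutant replicate 2, in which no read was counted. It was −1.12 in XBP1ΔDC against control (SE 0.69, edgeR adjusted p = 0.804) and −0.73 between the mutant groups (SE 0.77, edgeR adjusted p = 0.985). Tcf4, the E protein that specifies pDCs and is also found in other dendritic cells, was even, at 18.6 to 26.1 CPM over all pools.

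Counted over the 25 members tested, none had XBP1ΔDC pools wholly below or wholly above the controls, where 3.67% and 1.63% of all genes did. In the double-mutant pools against control, Siglech was wholly below and Mitf wholly above, beside 5.81% and 4.31% of all genes. In the double-mutant pools against XBP1ΔDC, Pmel and Dct were wholly below and Mitf wholly above, beside 2.96% and 3.11% of all genes.

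Neutrophil and lymphocyte genes were at the edge of detection. The 3 reads that a count of 0 allows correspond to 0.111 to 0.140 CPM per pool, for counting error only. S100a8 and S100a9, the calprotectin subunits that dominate neutrophil RNA, had at most 8 and 7 reads in a pool. Among B cell genes, Pax5 had no read in any pool, Cd79a at most 2, and Ms4a1, which encodes CD20, 0 to 47 reads. Ms4a1 passed the filter and had the widest spread of the members tested, with a biological coefficient of variation of 1.14. Its log2 fold change in the double-mutant pools against XBP1ΔDC was −2.71 (SE 1.39, edgeR adjusted p = 0.967).

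Most T and NK cell genes were highest in 1 library. The T cell sum was 7.81 CPM in double-mutant replicate 1 and 1.955 and 1.56 CPM in replicates 2 and 3, against 0.40 to 1.55 CPM in the controls and 0.65 to 1.51 CPM in XBP1ΔDC. The double-mutant pools were thus wholly above both other groups, the other two by a narrow margin, and without Cd4 they overlapped the controls. Cd3e, a chain of the T cell receptor complex, had 91 reads in double-mutant replicate 1, 10 and 7 in replicates 2 and 3, and 0 to 13 in each control and XBP1ΔDC pool. Cd3d had 43 reads in that pool and at most 7 elsewhere, and Cd3g 21 and at most 12. Cd8b1, a co-receptor chain of cytotoxic T cells, had 22 reads there, 0 to 8 in the controls and none in XBP1ΔDC.

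The cytotoxic granule genes were highest in the same pool. Gzmb, granzyme B, had 69 reads in it and at most 22 in any other. Nkg7 had 82 reads in it and 23 and 10 in the other double-mutant pools (3.20, 1.07 and 0.43 CPM), 0 to 7 in the controls (at most 0.26 CPM) and 3 to 14 in XBP1ΔDC (0.14 to 0.63 CPM). Every double-mutant pool exceeded every control, and XBP1ΔDC overlapped both groups. In a fit without the filter on low counts, its log2 fold change in the double-mutant pools against control was 3.94 (SE 1.16, edgeR adjusted p = 0.250). The NK receptor genes were sparser, with Ncr1 (NKp46) at 17 reads in XBP1ΔDC replicate 2, 14 in double-mutant replicate 1, 6 in control replicate 2 and none elsewhere, and Klrb1c (NK1.1) at 5 reads in all. Cd4 differed from the other T cell genes, with 1 to 11 reads in the controls, 10 to 20 in XBP1ΔDC and 19 to 23 in the double-mutant pools, so that here too every double-mutant pool exceeded every control in CPM. Some dendritic cells are known to express Cd4. In the fit without the filter, its log2 fold change in the double-mutant pools against control was 1.98 (SE 0.86, edgeR adjusted p = 0.484).

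**Figure D4:**
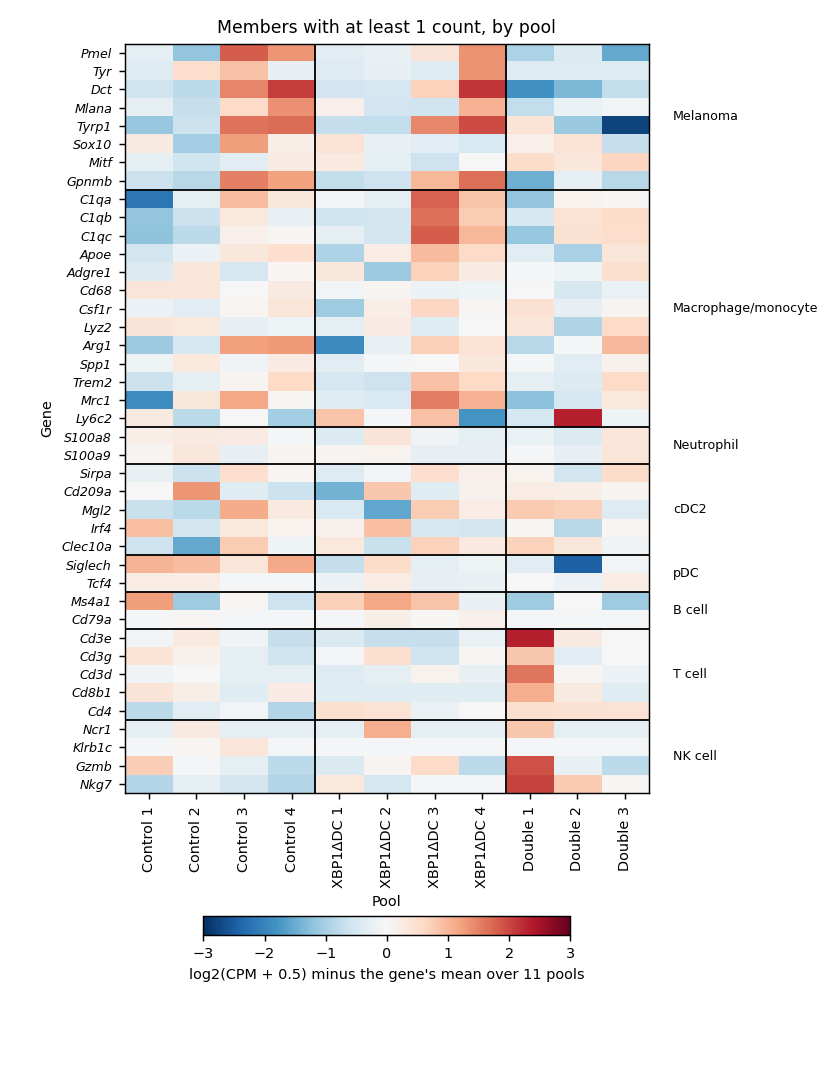
log2(CPM + 0.5) of each of the 41 members with a count, less its mean over the 11 pools, from blue (below) to red (above), with genes in rows by lineage and pools in columns (Double, XBP1ΔDCIRE1truncDC). Pmel, Dct, Tyrp1 and Gpnmb are red in replicates 3 and 4 of the first groups, the C1q genes, Mrc1 and Adgre1 in XBP1ΔDC replicate 3, and the CD3 genes, Nkg7 and Gzmb in double-mutant replicate 1.

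The highest pools were shared by some lineages and not by others. The share of all genes tested that were highest in each pool is not given here. In the melanoma list, 4 of 8 genes were highest in XBP1ΔDC replicate 4, 2 in control replicate 3, 1 in control replicate 4, and Mitf in double-mutant replicate 3. In double-mutant replicate 1, 4 of 5 T cell and 2 of 4 NK cell genes were highest, and the cDC2 sum was highest in control replicate 3, which was also high in melanoma genes. Replicates 3 and 4 were both above replicates 1 and 2 for 5 of 8 melanoma and 7 of 13 macrophage genes in the controls, and for 4 of 8 and 8 of 13 in XBP1ΔDC. Of all genes tested, 17.8% and 19.6% did so. This order was looked at after the values had been seen. What a replicate number shared by groups stands for is not given in the labels, and its part in these levels was not tested.

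The spread between pools of a group was wide for most members. Of the 25 tested, 22 had a biological coefficient of variation above the trend for their abundance, whereas 28.9% of all genes did. It was 0.60 for Pmel (trend 0.31), 0.68 for Dct (0.23), 0.999 for Tyrp1 (0.33), 0.66 for C1qa (0.34) and 0.63 for Ly6c2 (0.22). The 3 below the trend were Mitf, Cd68 (0.12 against 0.13) and Tcf4 (0.15 against 0.18).

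**Figure D5:**
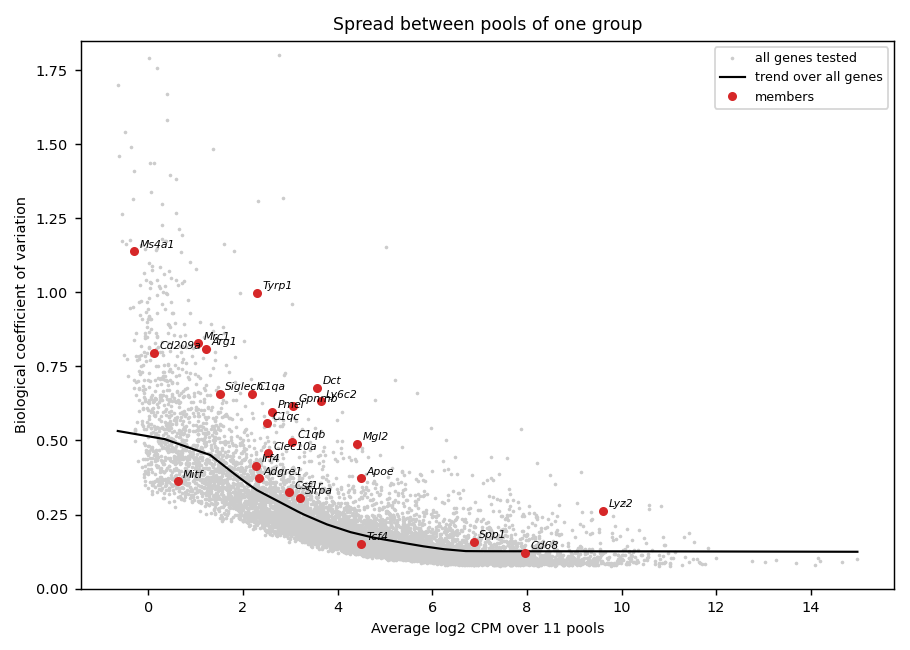
Biological coefficient of variation of each gene tested against its average log2 CPM (grey points), with the trend over all genes (line) and the 25 members (red). Of these, 22 lie above the line, with Ms4a1 at 1.14 and Tyrp1 at 0.999 the most spread.

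Further genes of the same lineages, taken from lists set beside the members, gave no DEG in any comparison either. Of 7 further melanoma genes, 6 had a read and none passed the filter, with Trpm1 (0.88 CPM on average) and Slc24a5 (0.55 CPM) the most abundant. Their sum overlapped between all groups. It was highest in control replicates 3 and 4 and XBP1ΔDC replicate 4 (4.72, 3.61 and 3.26 CPM). In XBP1ΔDC replicate 3 it was the lowest of its group (1.11 CPM). Slc24a5 was highest in XBP1ΔDC replicate 4 (1.63 CPM), where Trpm1 was the lowest of its group (0.31 CPM). Of 11 further macrophage and monocyte genes in the table, 9 passed, led by Ccr2 (539 CPM on average) and Cd14 (88.7 CPM), which dendritic cells also express, and Fcgr1 and Ms4a7 were highest in XBP1ΔDC replicate 3 (5.28 and 4.21 CPM). Cd14 and Ccr2 were not highest in that pool (43.0 and 505 CPM).

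Among further pDC genes, Ccr9, a homing receptor, held 14.0 to 17.4 CPM in the controls, 5.71 to 13.4 CPM in XBP1ΔDC and 7.66, 2.89 and 10.4 CPM in the double-mutant pools, so that both mutant groups lay wholly below the controls. Its log2 fold change in the double-mutant pools against control was −1.17 (edgeR adjusted p = 0.245), in the direction of Siglech. Spib (15.7 CPM on average) and Pacsin1 (11.5 CPM) overlapped between groups. Both went the other way in that comparison, with log2 fold changes of 0.43 (edgeR adjusted p = 0.849) and 0.72 (edgeR adjusted p = 0.739). Among cDC2 genes, Klf4 (50.5 CPM on average) had a log2 fold change of −0.74 in the same comparison (edgeR adjusted p = 0.389), and Itgam (6.14 CPM), which encodes CD11b, −1.02 in the double-mutant pools against XBP1ΔDC (edgeR adjusted p = 0.931).

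Double-mutant replicate 1 was also the highest pool for Lck (2.42 CPM), Foxp3 (2.03 CPM) and perforin, Prf1 (64 reads), of which the other pools held at most 0.296 CPM. Cd5 (1.69 CPM on average) and Klre1 (1.46 CPM) did not stand out in that pool, and Klrk1, which encodes NKG2D, was at 207 to 287 CPM in all pools. Of further B cell genes, Cd79b averaged 0.78 CPM. Of further neutrophil genes, Csf3r averaged 0.36 CPM and Mmp9 0.13 CPM.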

How the data were processed

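RNA-seq counts of 11 sorted pools were used. The authors enriched and sorted the cells, made SMART-seq v4 libraries, read them single-end, trimmed with Trimmomatic 0.39, aligned with STAR 2.7.3a and used HTSeqCount to assign reads to genes, so the deposited values are raw counts, on mm10 per the submitters' processing notes. A second deposited table, log2 values normalized by the authors with limma 3.42.2, was not used. The amplification carries no molecular identifiers, so counting limits cover counting error only.

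Pools were grouped by the labelled genotype. Counts were scaled by TMM in edgeR 4.0.16 (R 4.3.3), a gene was tested if it exceeded 1 CPM in 4 or more pools, and a quasi-likelihood model over the 3 groups gave the pairwise comparisons, with Benjamini-Hochberg adjustment over all 10951 genes. The SE is the log2 fold change divided by the square root of F. log2 CPM used a prior count of 2, and log2 of a lineage sum used 0.5 CPM. Exon lengths and gene coordinates came from GENCODE vM21 (GRCm38). Pools have no stated further replication, so p-values measure the spread between pools. On data simulated from these counts for XBP1ΔDC against control, edgeR called 77 of 100 genes changed 2-fold and 96 of 100 changed 4-fold among 10951 genes. These genes were drawn from all those tested, whose median biological coefficient of variation was 0.16 against 0.50 for the 25 members, so the share does not carry over to the members.

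The members and the lists set beside them were chosen with earlier results of these data known. Every member is named with its level. Log2 fold changes are given for members with an unadjusted p under 0.05 and for the lead genes that passed the filter (Pmel, C1qa, Ly6c2, Mgl2 and Siglech), and a few others were named after their values were seen. Of the further lists, genes named are the most abundant or were chosen after seeing values, and Selenop, Ly6g, Ighm and Igkc were not found under these symbols. Alternatives used DESeq2 1.42.0 and limma 3.58.1. Figures were drawn with matplotlib 3.10.9.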

Additional observations from a re-analysis of the deposited data

Results flagged for a closer look

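In groups of 4 pools, the highest or lowest pool had a gap to its nearest neighbour, relative to the group's range, above Dixon's critical value in 6 of 96 checks of a gene or list in a group, and chance flags about 1 in 20. That rate does not hold for a gene with reads in only 1 of the 4 pools, which is always flagged, as Ncr1 and Cd79a were here. Of XBP1ΔDC replicate 4, Tyr was flagged at 1.16 CPM, with the other 3 XBP1ΔDC pools at 0 to 0.046 CPM. Of XBP1ΔDC replicate 2, Tcf4 was flagged at 26.0 CPM (others 18.6 to 19.5 CPM), and with it the summed pDC list, at 29.6 CPM (others 20.3 to 20.9 CPM). Ncr1 in the same pool was flagged at 0.777 CPM with the other 3 pools at 0, and in control replicate 2 at 0.222 CPM, again with the other 3 at 0. Cd79a was flagged in control replicate 2 at 0.037 CPM, which is a single read.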

How the results depend on the processing

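No member was a DEG in any comparison under any alternative run: DESeq2, limma voom, library-size or DESeq2 size factor scaling, no filter (41 members tested), a filter on the mean, a fit of only the 2 groups compared, no fold limit, a replicate block, and each pool left out in turn. DEGs among all genes numbered 54, 23 and 8 in XBP1ΔDC against control, double-mutant against control and double-mutant against XBP1ΔDC, and with DESeq2 94 and 36 in the last 2. A fit of only the 2 groups gave 15 in the second. With 1 pool left out they numbered 37 to 58, 12 to 26 (fewest without control replicate 2) and 4 to 10 (fewest without XBP1ΔDC replicate 1 or 3). Without a fold limit there were 98, 39 and 8. With DESeq2, Cd68 in the double-mutant pools against control had an adjusted p of 0.0221 at a log2 fold change of −0.47, short of the fold limit, and over its alternatives the adjusted p went up to 0.339.

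With the replicate block 0 members and 40, 11 and 3 of all genes were DEGs. Deviations from the group means correlated between same-numbered pools by 0.042 to 0.133 (XBP1ΔDC and control), −0.020 to 0.027 (double-mutant and control) and −0.260 to −0.142 (double-mutant and XBP1ΔDC), and not every pool correlated best with its own number, so the numbers were not shown to pair pools.

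Over these alternatives, 390 values of the log2 fold changes given kept direction and call and 9 turned their sign. Pmel in XBP1ΔDC turned with limma voom (0.00028), and C1qa in the double-mutant pools against control with limma voom (0.027) or the block (0.12). With 1 pool left out, values ran from −0.97 to 0.14 for Pmel and −0.64 to 0.29 for Mgl2 in XBP1ΔDC against control, from −0.74 to 0.16 for C1qa and −0.031 to 1.93 for Ly6c2 in the double-mutant pools against control, and from −0.65 to 1.31 for Ly6c2 in these against XBP1ΔDC. The causes were not tested.

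Differences of lineage sums, means of log2(CPM + 0.5) with no test, moved by more than the SD between pools in 24 alternatives and by less in 296. For pDC genes, where Tcf4 is most abundant, they were −0.32, −0.25 and 0.069 in the 3 comparisons, −1.01, −1.81 and −0.81 for Siglech alone (the strict list), −0.69, −1.40 and −0.72 as a mean of log2 CPM, and, with the further genes in place of the members, 0.031 and 0.040 in the first 2. In XBP1ΔDC against control, macrophage genes went from −0.17 to 0.077 (strict list) or 0.26 (mean of log2 CPM), neutrophil genes from −0.35 to 0.60 (further genes) or −0.68 (mean of log2 CPM), and T cell genes from 0.10 to −0.41 without Cd4, which is also the strict list. In the double-mutant pools against control the further genes gave 0.72 in place of −0.28 for neutrophils, −0.70 in place of 0.26 for cDC2s and 0.0080 in place of 1.196 for NK cells. Against XBP1ΔDC they gave −0.32 in place of −1.203 for melanoma, −0.65 in place of 0.27 for cDC2s and −0.068 in place of −1.38 for B cells (−0.14 without Ms4a1). The further NK sum was nearly all Klrk1, which was abundant in every pool. Its difference therefore follows Klrk1 and cannot show whether the sparser NK genes moved. The further cDC2 sum was likewise mostly Klf4. Without double-mutant replicate 1, the T cell difference from control went from 1.23 to 0.60, and the NK differences from control and from XBP1ΔDC went from 1.196 to 0.39 and from 0.74 to −0.064. Low counts kept 17 members out of the model.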

Other observations

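Genes of non-immune cells were also counted. Fibroblast genes were uneven over pools, and their summed level was 0.59 to 12.2 CPM in the controls, 6.49 to 35.2 CPM in XBP1ΔDC and 2.33 to 3.52 CPM in the double-mutant pools. Col1a1, a chain of type I collagen, held 0.085, 0.92, 0.91 and 2.23 CPM in the controls, 5.43, 0.32, 1.72 and 18.2 CPM in XBP1ΔDC and 0.51 to 0.79 CPM in the double-mutant pools. XBP1ΔDC replicate 4, the pool with the highest melanoma sum, was highest for Col1a1, while Col3a1 was highest in XBP1ΔDC replicate 1 (12.7 CPM), where melanoma genes were low. In the double-mutant pools against XBP1ΔDC, the 3 fibroblast genes tested had log2 fold changes of −3.36 (Col1a1, edgeR adjusted p = 0.725), −2.17 (Col1a2, edgeR adjusted p = 0.931) and −2.33 (Col3a1, edgeR adjusted p = 0.931).

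The endothelial genes Pecam1 (6.59 CPM on average) and Kdr (7.38 CPM) were present in all pools, and the 4 endothelial genes summed to 6.17 to 23.5 CPM. The keratinocyte genes summed to at most 0.87 CPM. The 4 hemoglobin genes Hba-a1, Hba-a2, Hbb-bs and Hbb-bt, which form near-identical pairs, were at 0 in all 11 pools. How reads matching both genes of a pair were counted is not stated, so these values cannot show that hemoglobin RNA was absent.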
